A study of Mus musculus with 2 samples.

Results

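The DNAJ genes encode the J-domain co-chaperones, also called HSP40 proteins, and were taken as every row of the expression table whose symbol begins with Dnaja, Dnajb or Dnajc and a digit, pseudogene names left out. The rule found 45 genes among 23466 rows: 4 of subclass A, 13 of subclass B and 28 of subclass C. The data were bulk RNA-seq of mouse cultures labelled primary microglia, with 1 library from DMSO controls and 1 from cells given iron at 1600 μM with RSL3 at 1 μM to induce ferroptosis. Ferroptosis is an iron-dependent cell death driven by lipid peroxides, and RSL3 inactivates GPX4, the enzyme that removes them. The labels give no strain, genotype, age or exposure time for either culture, and do not say whether animals were pooled. No library analysed here had iron or RSL3 singly, so what each did cannot be told apart.

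A J domain is a short helical fold whose conserved His-Pro-Asp motif makes HSP70 hydrolyse ATP and close on a client protein. Each HSP70 cycle therefore needs a J protein to bring the client and a nucleotide exchange factor to release it. Subclass A proteins carry a glycine and phenylalanine-rich stretch and a zinc-binding region, subclass B proteins only the former, and subclass C proteins only the J domain joined to other, often specialised, parts. Genes of the cytosolic A and B proteins are known targets of heat shock factor HSF1, and several of the endoplasmic reticulum (ER) are targets of the unfolded protein response. Compartments below were assigned from textbook knowledge of the proteins, and 5 members without a settled place were not assigned.

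Levels are FPKM, fragments scaled to transcript length and to library size, so levels of different genes can be set side by side. A gene counted as measured at 1 FPKM or more in either library, and its change is the treated value minus the control value of log2(FPKM + 1), a scale that understates the change of weak genes. With 1 library per condition no difference has an error, a test or a replicate check, so genes were called higher or lower by a size rule of 2-fold alone. The median change of all 11771 measured features was -0.38, or -0.13 after centring on the median ratio of abundant features and -0.51 with equal FPKM totals, and the members' changes are read beside it. Where a pair of FPKM values is given, the control comes first. The label was checked against markers: of 15 microglia genes, 10 were below 1 FPKM in both libraries and Cx3cr1, Aif1, Sall1, Fcrls and Siglech were listed at 0. Tmem119, a microglia gene that was measured, was at 59.1 and 26.1 FPKM. In contrast, all 10 fibroblast and mural cell genes reached at least 10 FPKM in both, with sums of 5861 and 4748 FPKM. The part of this cell makeup in the results below was not tested. In such bulk samples, fewer cells of a type and less RNA per cell cannot be told apart.

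Of the 45 members, 37 were measured, and the family as a whole was divided between a few large increases and many small decreases. At least 2-fold higher in the treated library were 5 members, 13.5% of those measured, where 4.25% of all measured features were. At least 2-fold lower were 7 members, 18.9%, where the share of all features was 11.8%. A change below 0 was seen for 27 members, 73.0%, close to the 74.3% of all features, and the median over the measured members, -0.37, also lay next to that of all features. The members called higher were Dnajb1, Dnaja4, Dnajb9, Dnaja1 and Dnajb4, with changes from 1.89 to 4.20. The next highest, Dnaja2, stood at 0.53, so a wide gap separated these 5 from every other measured member. The members called lower went down to -1.39 and had no such gap, since Dnajc18 at -0.89 lay just outside the rule and Dnajc14 at -1.05 just inside.

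**Figure D1:**
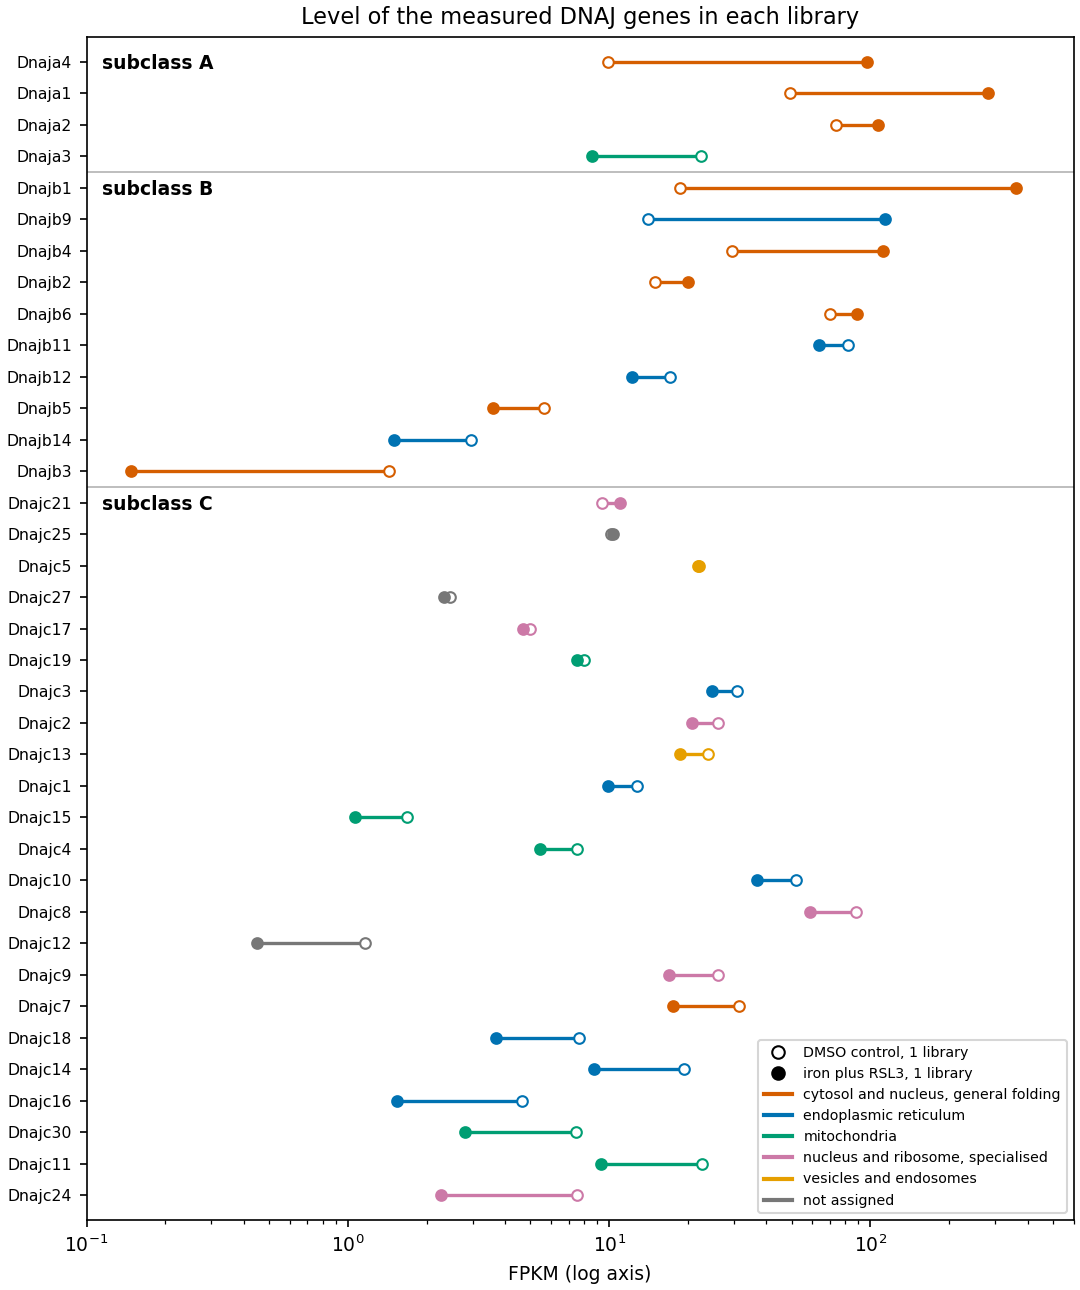
FPKM on a log axis of the 37 measured DNAJ genes by subclass, ordered by change, with an open point for the DMSO library, a filled point for the iron plus RSL3 library and the colour of the line for the compartment. In subclass C filled points lie mostly to the left of open ones and none is 2-fold higher, while Dnajb1 moves from 18.6 to 361 FPKM.

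The cytosolic and nuclear members of general folding held 4 of the 5 increases. Dnajb1, the canonical heat-inducible HSP40 that works with HSP70 in refolding and disaggregation, was at 18.6 FPKM under DMSO and 361 FPKM under iron plus RSL3. The treated level was 19.4 times the control level, and it moved the gene from the 17th to the 1st place among the DNAJ levels. Dnaja1, a farnesylated subclass A protein that serves constitutive HSP70, was at 49.4 and 281 FPKM, a change of 2.48. Both genes thus stood first and second in the treated library. Dnaja4, a close relative of Dnaja1 with low expression in the control, was at 9.90 and 97.4 FPKM, 9.84 times as high. Dnajb4, a subclass B relative of Dnajb1, was at 29.4 and 111 FPKM, 3.79 times as high. In all 4 the order of the libraries was the same under each of the alternative scalings, with a change of at least 1.73.

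The remaining cytosolic members moved little or went the other way. Dnaja2, the third cytosolic subclass A gene, was at 73.7 and 107 FPKM, 1.45 times as high. Dnajb6, which keeps polyglutamine proteins from aggregating, was at 69.8 and 89.2 FPKM, a change of 0.35. Dnajb2, a ubiquitin-binding J protein that sorts clients for the proteasome, was at 15.0 and 20.1 FPKM, a change of 0.40. These 3 were higher by less than 2-fold, and the treated value stayed above the control value under each scaling. Dnajb5, another relative of Dnajb1, was lower at 5.63 and 3.60 FPKM, and Dnajc7, whose TPR repeats bind both HSP70 and HSP90, was lower at 31.5 and 17.6 FPKM. Dnajb3, a single-exon gene known mainly from testis, was called lower at 1.44 and 0.148 FPKM, close to the limit for being measured. Over the 10 measured members of this compartment the counts were 4 higher and 1 lower, and the median change was 0.47. Of all measured features 4.25% were called higher and 11.8% lower.

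Promoter windows are shown for the members with the largest increases and for Dnajb6 and Dnajc3, which carry the longest matches, because HSF1 and the unfolded protein response act through known promoter elements. The windows are from RefSeq on GRCm38.p6, run from 250 bases before to 50 bases after an annotated start, and are read 5′ to 3′ along the gene. The table held 50 windows for 37 of the members. Not every window is printed for members with several, and for Dnaja1, Dnaja4 and Dnajb4 the window shown is that with a pair. Capitals mark pairs of heat shock units, GAANNTTC or TTCNNGAA, on either strand. In Dnajc3 they mark the ER stress element, CCAAT and CCACG with a fixed spacer between, and in Dnajb9, which has no such element, its lone CCAAT.
Dnajb1, chr8:83607925-83608224, plus strand: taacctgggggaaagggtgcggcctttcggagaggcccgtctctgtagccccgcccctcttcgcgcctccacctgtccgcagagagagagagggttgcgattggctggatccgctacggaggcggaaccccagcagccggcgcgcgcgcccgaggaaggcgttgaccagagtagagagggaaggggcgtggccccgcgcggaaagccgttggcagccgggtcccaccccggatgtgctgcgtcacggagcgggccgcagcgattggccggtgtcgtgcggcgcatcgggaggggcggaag
Dnaja1, chr4:40722218-40722517, plus strand: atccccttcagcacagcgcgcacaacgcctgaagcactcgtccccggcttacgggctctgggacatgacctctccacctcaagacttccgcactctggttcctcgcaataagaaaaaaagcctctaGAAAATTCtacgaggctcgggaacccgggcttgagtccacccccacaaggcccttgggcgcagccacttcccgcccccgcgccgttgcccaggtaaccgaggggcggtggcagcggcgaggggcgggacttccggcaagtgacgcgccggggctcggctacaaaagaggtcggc
Dnaja4, chr9:54699309-54699608, plus strand: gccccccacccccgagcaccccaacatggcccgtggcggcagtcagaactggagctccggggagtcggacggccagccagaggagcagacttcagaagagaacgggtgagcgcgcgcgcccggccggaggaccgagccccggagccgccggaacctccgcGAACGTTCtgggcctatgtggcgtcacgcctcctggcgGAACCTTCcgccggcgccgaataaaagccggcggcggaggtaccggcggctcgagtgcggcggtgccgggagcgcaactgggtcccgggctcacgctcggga
Dnajb4, chr3:152193796-152194095, minus strand: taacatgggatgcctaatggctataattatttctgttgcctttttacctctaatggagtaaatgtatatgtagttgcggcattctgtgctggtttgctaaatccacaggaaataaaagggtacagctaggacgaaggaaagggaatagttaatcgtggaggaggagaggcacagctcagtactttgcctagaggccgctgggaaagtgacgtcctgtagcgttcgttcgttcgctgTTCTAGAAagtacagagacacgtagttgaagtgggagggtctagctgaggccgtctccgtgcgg
Dnajb6, chr5:29735648-29735947, plus strand: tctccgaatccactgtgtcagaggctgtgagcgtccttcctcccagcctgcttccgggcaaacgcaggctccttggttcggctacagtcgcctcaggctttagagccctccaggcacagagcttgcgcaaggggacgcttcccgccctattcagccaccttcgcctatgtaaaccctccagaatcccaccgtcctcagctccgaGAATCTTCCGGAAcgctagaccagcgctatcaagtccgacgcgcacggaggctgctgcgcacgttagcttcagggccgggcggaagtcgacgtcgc
Dnajb9, chr12:44210019-44210318, minus strand: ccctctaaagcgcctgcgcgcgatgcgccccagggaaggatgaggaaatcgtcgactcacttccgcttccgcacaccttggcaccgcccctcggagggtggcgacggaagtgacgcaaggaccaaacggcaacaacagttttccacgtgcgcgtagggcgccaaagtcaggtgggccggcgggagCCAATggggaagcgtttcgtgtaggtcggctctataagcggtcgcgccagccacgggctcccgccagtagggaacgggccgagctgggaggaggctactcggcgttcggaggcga
Dnajc3, chr14:118937682-118937981, plus strand: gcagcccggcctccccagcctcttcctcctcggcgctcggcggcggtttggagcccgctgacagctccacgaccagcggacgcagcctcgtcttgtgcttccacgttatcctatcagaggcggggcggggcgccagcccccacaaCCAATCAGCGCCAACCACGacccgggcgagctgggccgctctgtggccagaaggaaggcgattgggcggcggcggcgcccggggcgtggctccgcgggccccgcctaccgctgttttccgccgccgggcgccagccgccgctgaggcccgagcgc

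Facing heat shock pairs were present in windows of 2 of the 5 members called higher, 2 of the 21 between and 0 of the 5 called lower that had windows, and in 6.92% of measured genes. Back-to-back pairs were present in 1, 2 and 0 of these members and in 8.17% of measured genes. A gene with more windows has more places for a match, and most members called higher have several. By window, facing pairs stood in 2 of the 10 windows of members called higher (20%), and back-to-back pairs in 1 (10%). Dnaja4 held 2 facing pairs, at -90 to -83 and -52 to -45 from the start, Dnaja1 held 1 at -124 to -117, and Dnajb4 held 1 back-to-back pair at -14 to -7. The other windows of Dnaja1, Dnaja4 and Dnajb4 held no pair. Neither window of Dnajb1 held a pair, although this gene had the largest change, which says only that these letters are not in these windows. A run of 3 alternating units was found in Dnajb6 alone, at -46 to -34, where the pairs GAANNTTC and TTCNNGAA overlap. The member with the longest heat shock match was thus one whose level differed by only 1.28 times. The facing pair stood in 6 of the 50 DNAJ windows (12%) and in 7.86% of all 32851 windows of the table, or 5.70% of those of measured genes. The back-to-back pair stood in 4 (8%), against 8.52% and 6.83%. The run of 3 units stood in 0.603% of all windows. The windows of Dnajb6 overlap, and the same run lies at -127 to -115 from its other start. This 1 site is thus counted in both windows, within the 6 and within the 4.

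Matches to elements of other stress pathways were sparse or common everywhere. The ER stress element was found in 1 of the 50 windows, that of Dnajc3 at -105 to -87, and in 0.119% of all windows. TGACGT, the core of cyclic AMP and ATF6 sites, stood in 7 (14%) against 7.51% of all windows and 11.7% of those of measured genes, among them both windows of Dnajb4. TGATGNAA, the composite site of CHOP and ATF4, stood in none of the 50 and in 3.97% of all. TGANNNNGC, the core of the antioxidant response element bound by NRF2, stood in 22 (44%) against 41.3%. CCAAT stood in 19 (38%) against 37.4%. These matches were made on both strands and describe the letters of the windows only.

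**Figure D2:**
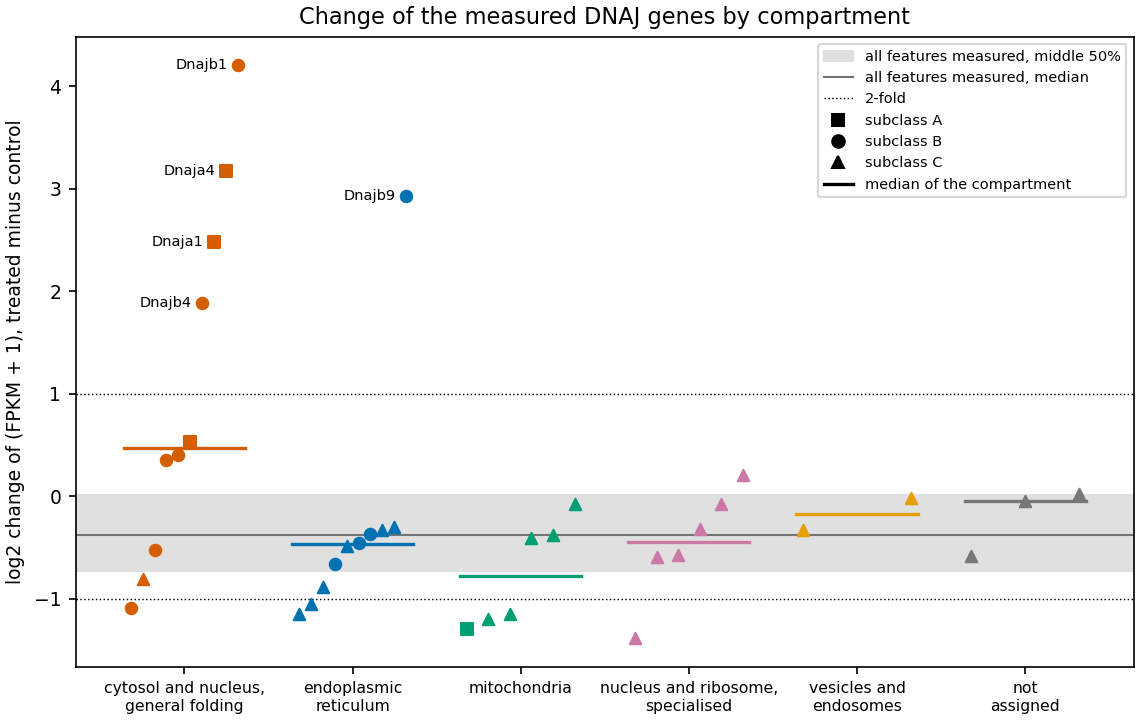
Change of the 37 measured DNAJ genes, treated minus control on the log2(FPKM + 1) scale, by compartment, with the subclass as the symbol, the median of each compartment as a bar, and the median and middle 50% of all 11771 measured features as a line and a grey band. The 5 labelled genes lie above the 2-fold line, and all 6 mitochondrial members lie below 0, though Dnajc19 changes sign after centring.

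In the ER, 1 of 10 members was called higher and 2 were called lower, with a median change of -0.47. Over all measured features the shares were 4.25% and 11.8%. Dnajb9, or ERdj4, which hands misfolded proteins to degradation and restrains the stress sensor IRE1, was at 14.1 FPKM under DMSO and 113 FPKM under iron plus RSL3, a ratio of 8.06. The gene went from the 20th to the 3rd place among the DNAJ levels. The other 9 ER members were all lower in the treated library, as were 74.3% of all features. Dnajb11, or ERdj3, the abundant lumenal partner that binds nascent chains with the HSP70 protein BiP, was at 82.2 and 63.6 FPKM. Dnajc10, or ERdj5, a disulfide reductase of ER-associated degradation, was at 52.0 and 36.9 FPKM. Dnajc3, or p58IPK, a lumenal BiP partner and the holder of the ER stress element above, was at 30.8 and 24.9 FPKM. The changes of these 3, -0.37, -0.48 and -0.30, lay near the median of all features, -0.38, and after centring they were -0.08, -0.20 and -0.02.

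Among the membrane-bound ER members 2 passed the size rule. Dnajc1, which sits at the translocon near ribosomes, was at 12.8 and 9.93 FPKM, and Dnajb12, whose J domain faces the cytosol, at 17.2 and 12.3 FPKM. Dnajb14, a paralogue of Dnajb12, was at 2.95 FPKM in the control with a change of -0.66, and Dnajc18, another ER membrane J protein, at 7.65 and 3.68 FPKM. Dnajc14, known for the surface export of receptors, was called lower at 19.3 and 8.79 FPKM, 2.20 times. Dnajc16, or ERdj8, was called lower at 4.63 and 1.55 FPKM, 3.00 times. Neither of these calls held after centring on the median ratio, where the changes were -0.79 and -0.96.

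All 6 mitochondrial members were lower in the treated library as deposited, like 74.3% of all features, 3 of them by at least 2-fold, and 1 of them, Dnajc19, changed sign after centring. Their median change, -0.78, was the lowest of the compartments. Of all measured features 11.8% were at least 2-fold lower. Dnaja3, or Tid1, the matrix partner of the mitochondrial HSP70 protein mortalin, was at 22.4 and 8.57 FPKM, 2.62 times lower, in contrast to the cytosolic genes of its own subclass. Dnajc11, an outer membrane protein linked to cristae organisation, was at 22.6 and 9.30 FPKM, 2.43 times lower. Dnajc30, an inner membrane J protein, was at 7.46 and 2.82 FPKM, 2.65 times lower. After centring on the median ratio only Dnaja3 of the 3 still passed 2-fold, with a change of -1.03, while Dnajc11 and Dnajc30 both stood at -0.93. The J proteins of the import motor moved less: Dnajc19 was at 8.02 and 7.56 FPKM, and Dnajc15 at 1.68 and 1.06 FPKM. Dnajc4 was at 7.54 and 5.44 FPKM.

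Of the 6 specialised members of the nucleus and the ribosome, 5 were lower as deposited, Dnajc17 not under every scaling, and 1 was called lower. These shares, 83.3% and 16.7%, lay near the 74.3% and 11.8% of all measured features. Dnajc24, which acts in making diphthamide on elongation factor eEF2, was at 7.55 FPKM under DMSO and 2.27 FPKM under iron plus RSL3, 3.32 times lower. Its change of -1.39 was the lowest of the family on the log2(FPKM + 1) scale, while the raw ratio was larger for Dnajb3, at 9.76. Dnajc8, a protein of splicing complexes, had the highest DNAJ level of the control at 87.8 FPKM and was at 58.7 FPKM in the treated library, in the 9th place. Dnajc9, a co-chaperone of histones H3 and H4, was at 26.1 and 16.9 FPKM. These 3 were lower under each scaling. Dnajc2, the J protein of the ribosome-associated complex, was at 26.1 and 20.7 FPKM, and Hspa14, its HSP70 partner in human cells, at 28.4 and 14.3 FPKM. Dnajc17, a splicing factor, differed little at 4.98 and 4.69 FPKM, and Dnajc21, which acts in maturation of the large ribosomal subunit, was the one higher at 9.41 and 11.0 FPKM.

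Among members of vesicles and endosomes, Dnajc5, the cysteine string protein of secretory vesicles, was level at 22.1 and 21.8 FPKM, and Dnajc13, the endosomal protein RME-8, was at 23.8 and 18.7 FPKM. The 3 measured members without an assigned compartment were Dnajc25 at 10.2 and 10.4 FPKM, Dnajc27, which joins a Rab-like GTPase to a J domain, at 2.45 and 2.33 FPKM, and Dnajc12, a chaperone of aromatic amino acid hydroxylases, at 1.17 and 0.448 FPKM. None of these 5 was called. The 8 members not measured were Dnajb7, Dnajb8, Dnajb13, Dnajc5b, Dnajc5g, Dnajc6, Dnajc22 and Dnajc28. Dnajb8, Dnajb13, Dnajc5b and Dnajc5g were listed at 0 in both libraries. Dnajc28 came nearest to the limit, at 0.903 and 0.304 FPKM. Most of these genes are known from testis, cilia or neurons, as Dnajb13 of sperm flagella and Dnajc6, or auxilin, of synaptic clathrin coats.

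By subclass, the increases were divided between A and B and absent from C. Subclass A had 2 of 4 members higher and 1 lower, with a median change of 1.51. Subclass B had 3 of 10 measured members higher and 1 lower, and its median of -0.01 turned to 0.28 after centring. Subclass C had 0 of 23 measured members higher and 5 lower, with a median of -0.41 and only Dnajc21 and, as deposited, Dnajc25 above 0. Of all measured features 4.25% were called higher and 11.8% lower, beside 0% and 21.7% of subclass C. At 4.25% few or none of 23 genes would be called higher, so the 0 of subclass C lies near that share. Within subclass C the changes ran from -1.39 to 0.21. Subclass and compartment overlap in this family: of the subclass A genes the 2 called higher are cytosolic and the 1 called lower is mitochondrial. In the same way, none of the 6 subclass C members of the ER was called higher, and 2 were called lower. With 6 genes, 0 called higher also lies near the share of all features.

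**Figure D3:**
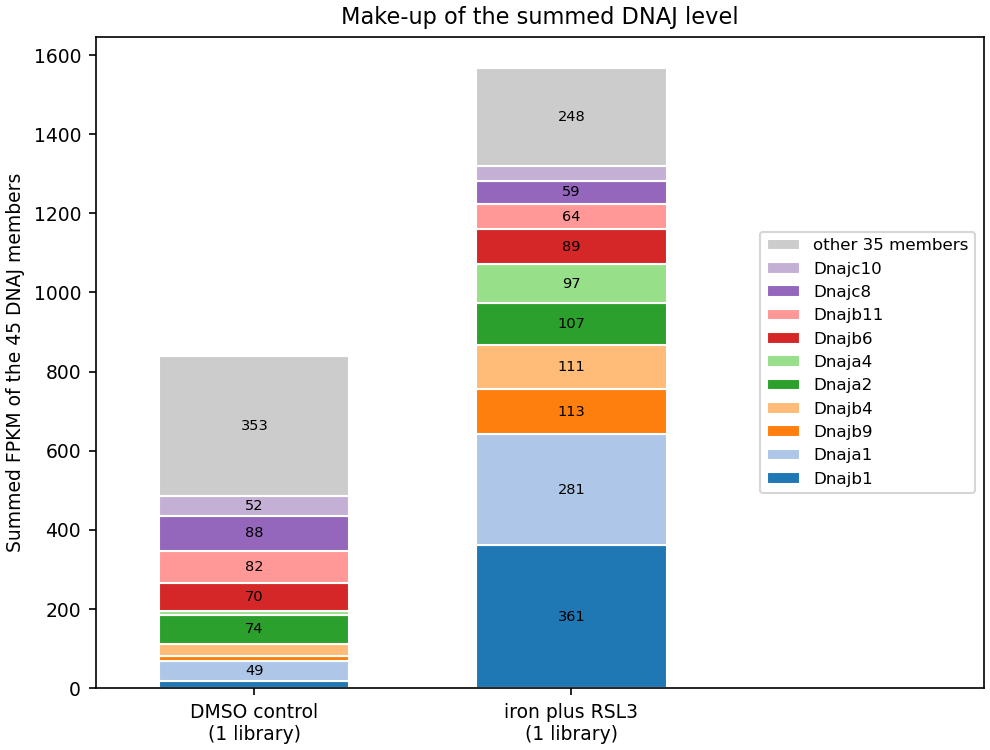
Summed FPKM of the 45 DNAJ members in each library, stacked by member, for the 10 members that held at least 5% of the sum in either library and the other 35 together. The treated bar is 1.87 times as tall, and Dnajb1 and Dnaja1 make up most of what was added.

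The summed level of the family was 840 FPKM under DMSO and 1568 FPKM under iron plus RSL3, a ratio of 1.87. The 5 members called higher made up 121 FPKM of the control and 964 FPKM of the treated sum, while the other 40 went from 719 to 604 FPKM as deposited. Centring on the median ratio multiplies treated values by 1.23, which puts the treated sum of these 40 above their control sum. The direction for these 40 thus depends on the scaling. The share of Dnajb1 alone was 2.22% under DMSO and 23.0% under iron plus RSL3, and that of Dnaja1 5.88% and 17.9%. Dnajc8, which had the largest control share at 10.4%, held 3.74% in the treated library. Subclass C held the largest part of the control sum with 429 FPKM and was at 298 FPKM in the treated library. Subclass A was at 155 and 494 FPKM, and subclass B at 256 and 776 FPKM.

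J proteins act with HSP70, so their summed levels were set against the HSP70 genes of the same compartment within each library, a ratio that no scaling of a library can change. In the cytosol the J genes were at 304 and 1088 FPKM, and the constitutive gene Hspa8 was at 776 and 2935 FPKM. Per 100 FPKM of Hspa8 there were 39.2 FPKM of cytosolic J genes under DMSO and 37.1 FPKM under iron plus RSL3. With the inducible genes Hspa1a and Hspa1b added, the HSP70 sum was 800 and 7179 FPKM and the ratio went from 38.0 to 15.2. Hspa1a and Hspa1b are near-identical, so their sum is used. In the ER the J genes were at 244 and 276 FPKM against 309 and 561 FPKM of Hspa5, the gene of BiP, and the ratio went from 78.7 to 49.3. Without Dnajb9 the ER sum was 229 and 163 FPKM. In mitochondria the J genes were at 69.7 and 34.8 FPKM against 189 and 240 FPKM of Hspa9, the gene of mortalin, and the ratio went from 36.9 to 14.5. The ER sum includes Dnajb12, whose J domain faces the cytosol. The mitochondrial sum includes Dnajc11 of the outer membrane, at 22.6 and 9.30 FPKM. The ratios are thus of whole compartments and not of J genes to their own HSP70 partner alone. These ratios are of transcripts, chosen with the values known, and say nothing of protein.

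**Figure D4:**
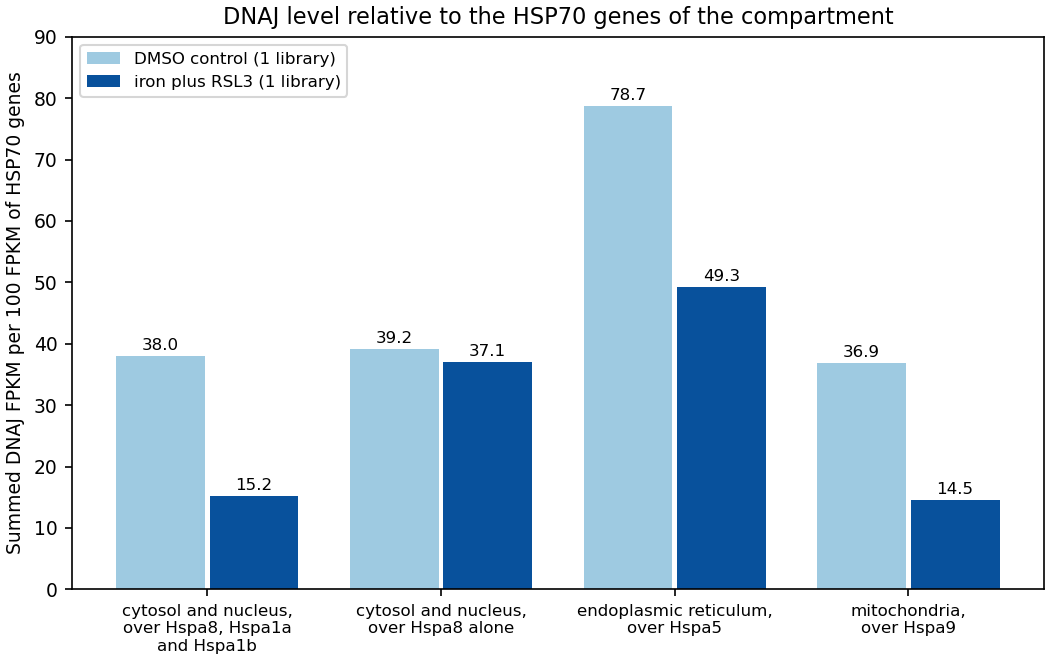
Summed FPKM of the DNAJ genes of a compartment per 100 FPKM of its HSP70 genes in the DMSO library (light bars) and the iron plus RSL3 library (dark bars). In the cytosol the ratio to Hspa8 alone is 39.2 and 37.1, and with Hspa1a and Hspa1b added it is 38.0 and 15.2. The ratios in the ER and the mitochondria are also lower in the treated library.

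The wider HSP70 machine was described by lists of partners. Of 15 HSP70 and HSP110 genes, 7 (46.7%) were at least 2-fold higher and 1 (6.67%), Hspa12b, was lower at 5.90 and 1.99 FPKM. The shares of all measured features were 4.25% and 11.8%. The median change of the 15 genes was 0.86. Hsph1, the cytosolic HSP110 that exchanges nucleotide for HSP70, was 7.13 times as high at 49.9 and 356 FPKM. Besides Hspa8, Hspa1a and Hspa1b, the others called higher were weak genes: Hspa1l was at 0.845 and 4.82 FPKM, Hspa2 at 2.90 and 8.36 FPKM and Hspa4l at 4.88 and 11.9 FPKM. Of 10 nucleotide exchange factors, Bag3, which couples HSP70 to selective autophagy, was called higher at 53.4 and 170 FPKM, and Bag5 was called lower at 13.6 and 6.14 FPKM, a call lost after centring at -0.77. The most abundant of them in the control, Bag1 and Bag6, differed little, at 106 and 117 FPKM and at 61.4 and 57.2 FPKM. The 1 called higher and the 1 called lower are each 10% of the exchange factors, the latter near the share of all features. The median of the exchange factors was -0.15.

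Partners in the other compartments had no member past 2-fold as deposited, where 4.25% of all measured features were higher and 11.8% lower by that rule. Hspa5 passed it after centring with a change of 1.15. Of 11 ER partners, 3 were higher and 8 (72.7%) lower, near the 74.3% of all features, with a median change of -0.06. The most abundant in the control were Hspa5 and Sec61a1, a translocon channel gene with a change of -0.39. Of 12 mitochondrial partners, 5 were higher and 7 (58.3%) lower, with a median of -0.09. The most abundant in the control were Hspa9 and Immt, the cristae protein mitofilin at 63.5 and 42.4 FPKM. The mitochondrial J genes had a median of -0.78 beside this. Both medians turned above 0 after centring, to 0.23 and 0.18, and the median of the mitochondrial J genes did not, at -0.57.

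**Figure D5:**
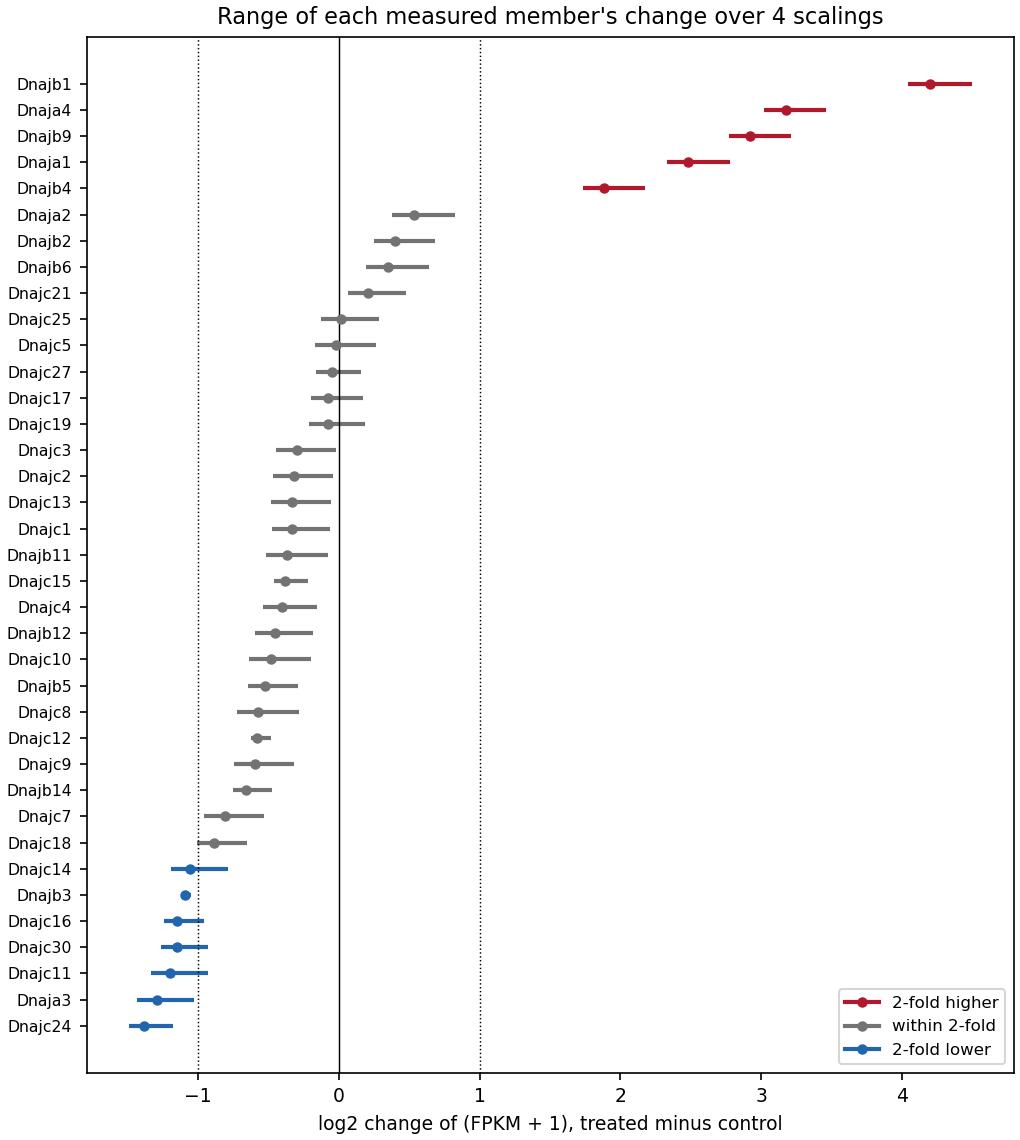
Change of each measured DNAJ gene as deposited (point), with the range (bar) over the deposited scale, equal FPKM totals, centring on the median ratio and a total without mitochondrially encoded and the 20 most abundant genes. The bars of the 5 genes in red lie wholly above the 2-fold line, and those of 4 genes in blue cross it.

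Under these scalings the 5 members called higher kept their call, and none of the 7 called lower changed sign. Dnajc11, Dnajc14, Dnajc16 and Dnajc30 came within 2-fold after centring. The direction of Dnajc5, Dnajc17, Dnajc19, Dnajc25 and Dnajc27 differed between scalings, so the directions counted for them above hold for the values as deposited only. Exons of 9 measured members overlap exons of another measured protein-coding gene, and the labels' protocol names no step that marks strand, so their values are uncertain. Among them are Dnaja1 with Smu1, which went from 32.5 to 19.4 FPKM, and Dnaja4 with Wdr61, from 53.5 to 38.7 FPKM, both opposite in direction to the J gene. Dnaja3 shares exonic bases with Vasn, which went from 52.0 to 90.8 FPKM while Dnaja3 was lower, and with Coro7. Dnajc14 overlaps Sarnp, Ormdl2 and Tmem198b, and Dnajc30 overlaps Bud23. Dnajc1, Dnajc7, Dnajc17 and Dnajc19 are the others.

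The members are scattered over the genome. On GRCm38, Dnajb1 lies on chromosome 8 from 83608193 to 83612653 and Dnaja1 on chromosome 4 from 40722150 to 40737149. Dnaja4 lies on chromosome 9 from 54698873 to 54716315, Dnajb4 on chromosome 3 from 152178511 to 152210302 and Dnajb9 on chromosome 12 from 44205559 to 44210326. Dnaja3, one of the mitochondrial members called lower, lies on chromosome 16 from 4639989 to 4707695. The annotated spans of the 5 members called higher were 4.46 to 31.8 kb, with a median of 15.0 kb, and those of the 7 called lower 1.05 to 67.7 kb, with a median of 30.7 kb. The ranges overlap widely. Across the 37 measured members, which are not independent and come from the same 2 libraries, the Spearman correlation of span with change was -0.17, and over the 32 of them not called higher it was 0.00073.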

How the data were processed

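Total RNA from cultures labelled primary microglia was enriched for poly(A) RNA and made into libraries, per the labels' protocols, with 1 library per condition. The values are FPKM per gene, as the authors deposited them. HISAT2, StringTie, DESeq2, edgeR and the build GRCm38 are listed in the submitters' processing notes. The sources used here do not give tool versions, annotation or filters. All value columns were assigned to a library through the library names in the labels.

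Summed FPKM came to 385141 under DMSO and 429250 under iron plus RSL3. For genes with 1 annotated transcript below 3.5 steps, 34.0% and 37.0% of FPKM times length were whole multiples of 1 step to within 0.05, where an even spread gives 10%. The step was picked in each library for the highest share among many tried, which by itself raises these shares above that of an even spread. Read counts could thus not be rebuilt, so there is no count model and no interval. If a step is 1 fragment, 1 FPKM on 1000 bases stands for about 16.6 and 18.3 fragments.

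Members, lists, compartments and ratios were chosen with earlier results of these data known. Named were all measured members, and from other lists the members past 2-fold and the 2 most abundant in the control. Hspa14, Hscb and Pam16 fall outside this rule and were chosen after their values were seen. Changes were computed with pandas 2.3.3. The code of the size rule was run on a simulated table of exact fold changes without noise, which checks the code and not the calls. Positions and overlaps are from GENCODE M21 on GRCm38, in which all 45 members were found by identifier. Alternatives used another pseudocount, filter, library scale or size rule. The summed level of the microglia markers is not reported here.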

Additional observations from a re-analysis of the deposited data

How the results depend on the processing

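The count of members called higher, 5, and its split by subclass and compartment were the same under all 7 alternatives. The counts called lower depended on the setting, because those members lie close to 2-fold. After centring on the median ratio they were 3 in all, 1 in subclass C, 0 in the ER and 1 in the mitochondria, in place of 7, 5, 2 and 3. With a size rule of 1.5-fold they were 11 in all, 2 in subclass B, 8 in subclass C, 2 in the cytosol and 4 in the ER. Among members at 5 FPKM or more in either library they were 0 in subclass B, 0 in the cytosol and 1 in the ER, since Dnajb3 and Dnajc16 leave by construction. Shares of all features were computed for the 2-fold rule on the deposited values only. The counts under the alternatives therefore cannot be set beside a share of all features. The subclass B median of -0.01 turned to 0.28 after centring and to 0.37 among members at 5 FPKM or more. With a pseudocount of 0.1 FPKM, Dnajc12 (-1.21) and Dnajc18 (-1.04) also passed 2-fold, as Dnajc18 did with equal totals (-1.01). No paired analysis was possible because each condition has 1 library, and no library could be left out. Depth limits the weak and short members most.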

Other observations

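Genes with a J domain but no DNAJ symbol, and the heat shock factors, were looked at as lists beside the family. None of the 5 other J-domain genes passed 2-fold, and their median change was -0.12, or 0.17 after centring. Sec63, the J protein of the ER translocon, was at 26.1 and 24.0 FPKM, and Gak, the widely expressed relative of auxilin, at 28.3 and 18.6 FPKM. Hscb, which serves iron-sulfur cluster assembly in mitochondria, was level at 9.28 and 9.50 FPKM. Pam16, the partner of Dnajc19 in the import motor, was at 21.3 and 18.8 FPKM.

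Of 4 heat shock factor genes, 2 were measured and neither passed 2-fold. Hsf1, the main activator of heat shock genes, was at 26.7 and 22.8 FPKM, a change of -0.22 that turned to 0.07 after centring. Hsf2 was at 6.04 and 7.62 FPKM. Hsf4 and Hsf5 were below 1 FPKM in both libraries.

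The sums of the marker lists of other cell types were low beside those of fibroblasts. Neuron markers summed to 21.8 and 17.2 FPKM, nearly all from Tubb3, astrocyte markers to 4.25 and 4.02 FPKM, and the treated sum of oligodendrocyte markers was 0.504 of the control sum.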
